A study of Homo sapiens with 6 samples.

Results

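Pre-mRNA splicing regulators were examined in NCI-H1975 cells, an established line from a human non-small cell lung carcinoma. The 43 genes were taken from the deposited gene table by Ensembl identifier, from a named list of SR proteins, heterogeneous nuclear ribonucleoproteins (hnRNPs), polypyrimidine tract binding (PTB) and TIA proteins, 3 other proteins of the splicing apparatus and the CLK kinases. All 43 were found among the 60960 features of the table. The 6 bulk mRNA libraries form 2 groups of 3, cells given a control small interfering RNA (siNC) and cells given a small interfering RNA against GFPT2 (siGFPT2), the gene for a glutamine-fructose-6-phosphate transaminase of the hexosamine pathway. Not given in the sources used here are the dose, duration and transfection of the small interfering RNAs. The extraction text also mentions almonertinib (an EGFR inhibitor), EGF and knockdown of EGFR, but the treatment labels name none of these. All libraries come from this cell line, and nothing says that the replicates were separate cultures. The p-values therefore measure only the spread between these libraries, which may be technical.

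Splice sites are chosen with the help of proteins that bind the pre-mRNA. SR proteins carry RNA recognition motifs and a tail rich in arginine and serine, and they mostly promote the use of nearby splice sites, whereas many hnRNPs bind silencer elements and oppose it. CLK kinases phosphorylate the arginine and serine tails, which releases SR proteins from nuclear speckles. Many of these genes limit their own output through a poison exon, whose inclusion sends the transcript to nonsense-mediated decay, or through introns that stay in the transcript.

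The annotation of these genes bears on what a gene-level value holds. In GENCODE 29, 34 of the 43 genes (79.1%) have at least 1 transcript classed as nonsense-mediated decay, against 43.6% of the 10680 protein-coding features tested, and 32 (74.4%) have a retained-intron transcript, against 58.9%. The deposited value of a gene counts all its exons together, so productive, poison-exon and intron-retaining transcripts were not separated. FPKM are fragments per kilobase of gene length, scaled to the counted fragments of the library. The gene length behind each value was recovered from the steps of the FPKM values, and equalled the total exon length in GENCODE 29 for 14 of the 43 genes. For the others it is the smallest length that gives whole reads. It was 1.73 times the longest annotated mRNA at the median of the 43 genes and between 0.999 times for HNRNPA0 and 4.43 times for TRA2B. Levels compared between genes below are per this recovered length, and a gene such as TRA2B, RBM39 (4.23 times) or SRSF4 (3.69 times) would stand higher per length of its mRNA. In bulk RNA, fewer cells of a kind and less RNA per cell cannot be told apart.

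Library depth was 21899321 to 27234880 counted fragments, and the members rested on 165 fragments (PTBP2 in siNC replicate 1) to 28518 fragments (HNRNPA2B1 in siGFPT2 replicate 2). The epithelial markers EPCAM, CDH1, KRT7, KRT8, KRT18 and KRT19 summed to 1428 to 2086 FPKM in siNC and 1480 to 1881 FPKM in siGFPT2. The lung lineage factor NKX2-1 was at 27.7 to 31.7 FPKM, while the surfactant genes SFTPB and SFTPC did not exceed 0.08 FPKM in any library. The leukocyte gene PTPRC reached at most 0.0134 FPKM and the T cell gene CD3E at most 0.0169 FPKM. Of 3 endothelial, 4 fibroblast and 5 neural markers, 0, 2 and 1 had a mean of at least 1 FPKM (COL1A1, COL1A2 and SYP, named after their values were seen). Their sums were 0.232 to 0.276 and 0.256 to 0.405 FPKM for the endothelial, 8.46 to 10.4 and 8.85 to 11.9 FPKM for the fibroblast, and 2.41 to 3.12 and 2.07 to 2.58 FPKM for the neural markers, in siNC and siGFPT2. The targeted gene GFPT2 was 10.1, 9.30 and 8.28 FPKM in siNC and 8.94, 7.58 and 8.72 FPKM in siGFPT2, in the order of replicates 1, 2 and 3. The 2 groups overlapped, with a log2 fold change of -0.13 ± 0.13 (SE; 95% interval -0.43 to 0.17), and an exact two-sided permutation test gave p = 0.4, where 0.1 is the smallest value that 3 against 3 libraries allow. GFPT2 mRNA thus did not tell the labels apart, and a direction below refers to the libraries labelled siGFPT2.

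Some libraries stood apart before any group was compared. siNC replicate 3 and siGFPT2 replicate 2 had lower values for genes with long mRNAs, with slopes of -0.12 and -0.08 in log2 level per doubling of mRNA length over 12565 features, against 0.04 to 0.07 in the other 4 libraries. A list of 20 cytosolic ribosomal protein genes summed to 11358 and 10264 FPKM in these 2 libraries and to 6954 to 7825 FPKM in the others. The part of these differences in the results below was not tested, and values without them are given for SRSF1, SRSF2, SRSF3, SRSF11, HNRNPF, HNRNPM, HNRNPUL1, PTBP1, PTBP3, SON and SNRNP70.

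Promoter windows are shown for 3 of the 5 genes with the widest ranges over the libraries. SRSF1 and SRSF3 were lowest in siNC replicate 1 and highest in siNC replicate 3, whereas SON was lowest in siNC replicate 3. The windows are from RefSeq (GRCh38.p14) and hold 300 bases around the annotated start, on the strand of the gene. SRSF1 lies at chr17:58007197-58007496 (minus strand), SRSF3 at chr6:36594112-36594411 (plus strand) and SON at chr21:33542788-33543087 (plus strand). Capitals mark matches, on either strand, to the TATA box TATAAA, the CCAAT box CCAAT, the GC box GGGCGG, the YY1 core CCATNTTG and the cyclic AMP response element TGACGTCA, which were chosen after the sequences were seen.
SRSF1: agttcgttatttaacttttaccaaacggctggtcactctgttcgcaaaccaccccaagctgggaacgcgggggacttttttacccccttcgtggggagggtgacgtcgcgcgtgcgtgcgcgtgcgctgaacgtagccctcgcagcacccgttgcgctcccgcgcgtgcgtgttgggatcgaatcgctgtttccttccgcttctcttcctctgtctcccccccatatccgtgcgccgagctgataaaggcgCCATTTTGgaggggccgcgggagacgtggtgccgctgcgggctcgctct
SRSF3: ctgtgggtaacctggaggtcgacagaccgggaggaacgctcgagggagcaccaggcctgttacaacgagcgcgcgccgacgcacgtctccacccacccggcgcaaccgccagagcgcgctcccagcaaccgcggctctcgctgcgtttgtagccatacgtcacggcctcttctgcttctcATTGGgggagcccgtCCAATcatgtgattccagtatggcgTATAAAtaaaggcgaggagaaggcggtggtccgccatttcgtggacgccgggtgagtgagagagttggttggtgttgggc
SON: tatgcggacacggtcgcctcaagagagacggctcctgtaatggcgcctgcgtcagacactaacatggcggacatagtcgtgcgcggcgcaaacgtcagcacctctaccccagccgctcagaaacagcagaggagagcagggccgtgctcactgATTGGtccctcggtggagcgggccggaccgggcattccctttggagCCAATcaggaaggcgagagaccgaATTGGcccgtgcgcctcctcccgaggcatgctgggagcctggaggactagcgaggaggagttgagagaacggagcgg
SRSF1 held the CCATNTTG core at bases 2 to 9 after the start. SRSF3 held TATAAA from base -30 to -25 and CCAAT in both orientations, and SON held CCAAT at 3 places. No motif searched was shared by SRSF1 and SRSF3. RefSeq windows were found for 39 of the 43 genes, in 56 windows. Of these, 7 held TATAAA (12.5%, against 11.5% of 35116 windows of all genes), 23 held CCAAT (41.1% against 34.6%), 38 held GGGCGG (67.9% against 45.0%), 11 held CCATNTTG (19.6% against 5.20%) and 0 held TGACGTCA (against 1.85%). The median GC content was 64.8% in these windows and 58.7% in all windows. Several windows belong to the same gene, matches of different motifs can share bases, and a match describes letters only.

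Splicing regulators were abundant, and their levels differed between families. The hnRNPs had a median level of 39.4 FPKM over 19 genes, the SR and TRA2 proteins 18.9 FPKM over 12 and the CLK kinases 5.84 FPKM over 4, against 5.42 FPKM over the 12896 features that averaged 1 FPKM or more. The highest were HNRNPA1 (mean over 6 libraries 118 FPKM), HNRNPK (116), HNRNPAB (110.1) and HNRNPF (103), whose single libraries overlapped, so their order is not resolved. At the other end stood PTBP2 (0.654 FPKM), CLK4 (1.83), CLK3 (4.96) and TIA1 (5.44). Together the 42 genes above the filter summed to 1434, 1529 and 1537 FPKM in siNC and 1523, 1560 and 1547 FPKM in siGFPT2 (replicates 1, 2 and 3).

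**Figure D1:**
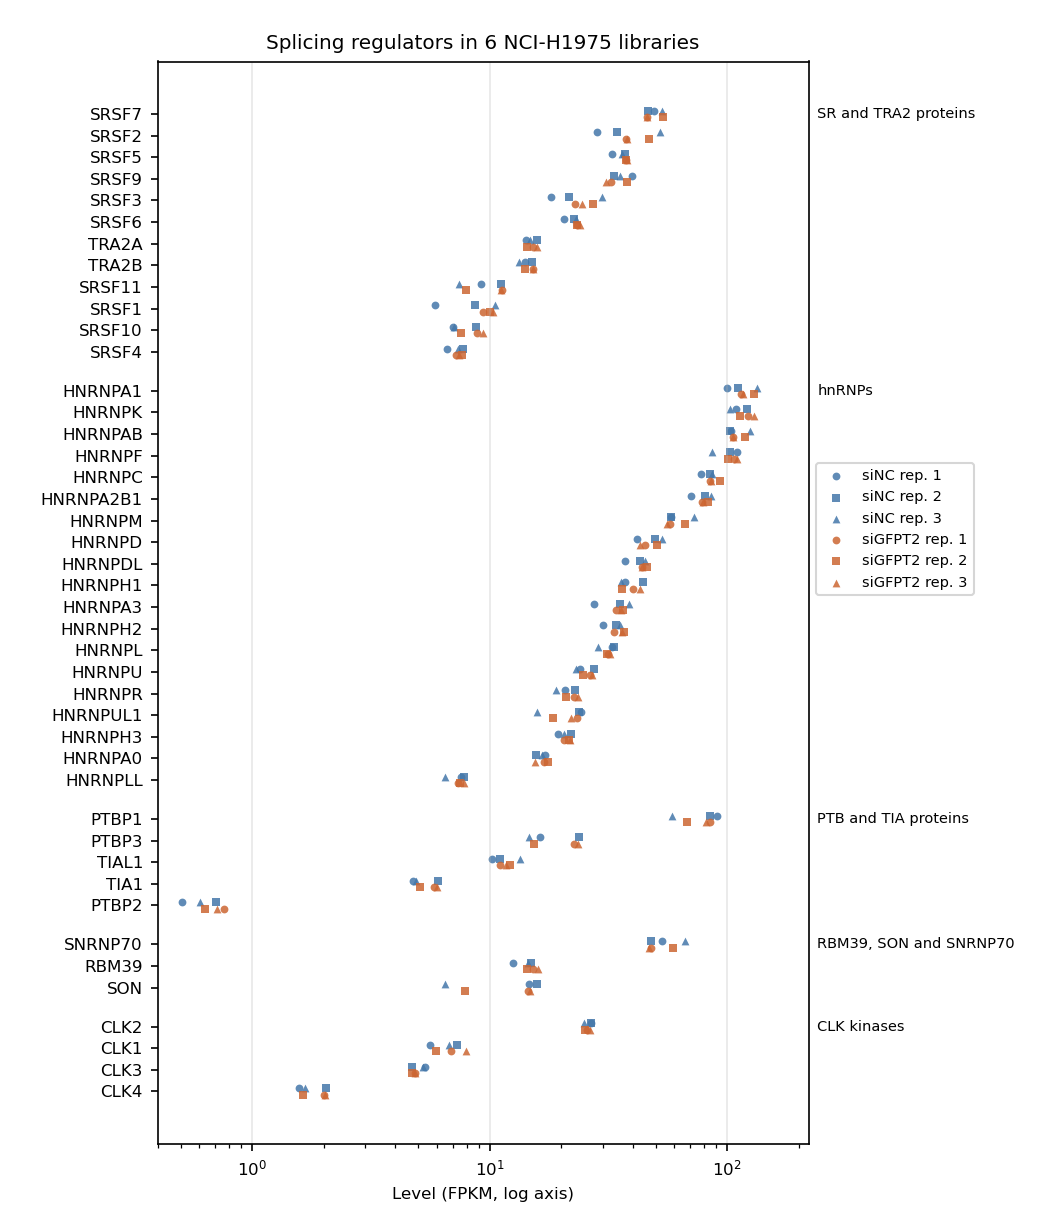
Level of each of the 43 splicing regulators (FPKM, log axis) in each library, by family and ordered by mean within the family; blue marks siNC, orange siGFPT2, and the marker shape the replicate. HNRNPA1 lies near 118 FPKM and PTBP2 near 0.654 FPKM, and within most genes the points of both groups overlap.

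No splicing regulator passed the test for a difference between siGFPT2 and siNC. With limma on log2(FPKM + 0.1), fitted over all 12896 features and adjusted with the Benjamini-Hochberg method, 0 of 42 tested genes had an adjusted p under 0.05 (background: 0% of features), 0 had an unadjusted p under 0.05 (background: 0.651%), and the smallest adjusted p was 0.9999. By limma-voom on recovered reads, 0 were called and 0 had an unadjusted p under 0.05 (60 features in all did). The log2 fold changes ran from -0.12 for SNRNP70 to 0.28 for SRSF1, with a median of 0.07 against 0.03 over all features. They were above 0 for 35 genes and below 0 for 7, that is above 0 for 83.3% against a background of 61.4%. This count rests on siNC replicate 1: without that library 25 of 42 were above 0 (59.5%, against a background of 60.7%). It was 31 without siNC replicate 3 (background 52.8%) and 29 when siGFPT2 replicate 2 was left out too (background 57%). It also moves with scaling, to 24 above and 18 below 0 when each library is centred on its median feature (background 44%) and to 30 and 12 with quantile normalization (background 50%). The 95% interval lay within a 1.5-fold change in either direction for 36 of 42 genes (85.7%, against 61.1% of all features) and within a 2-fold change for 41. The exception to the latter was SON.

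**Figure D2:**
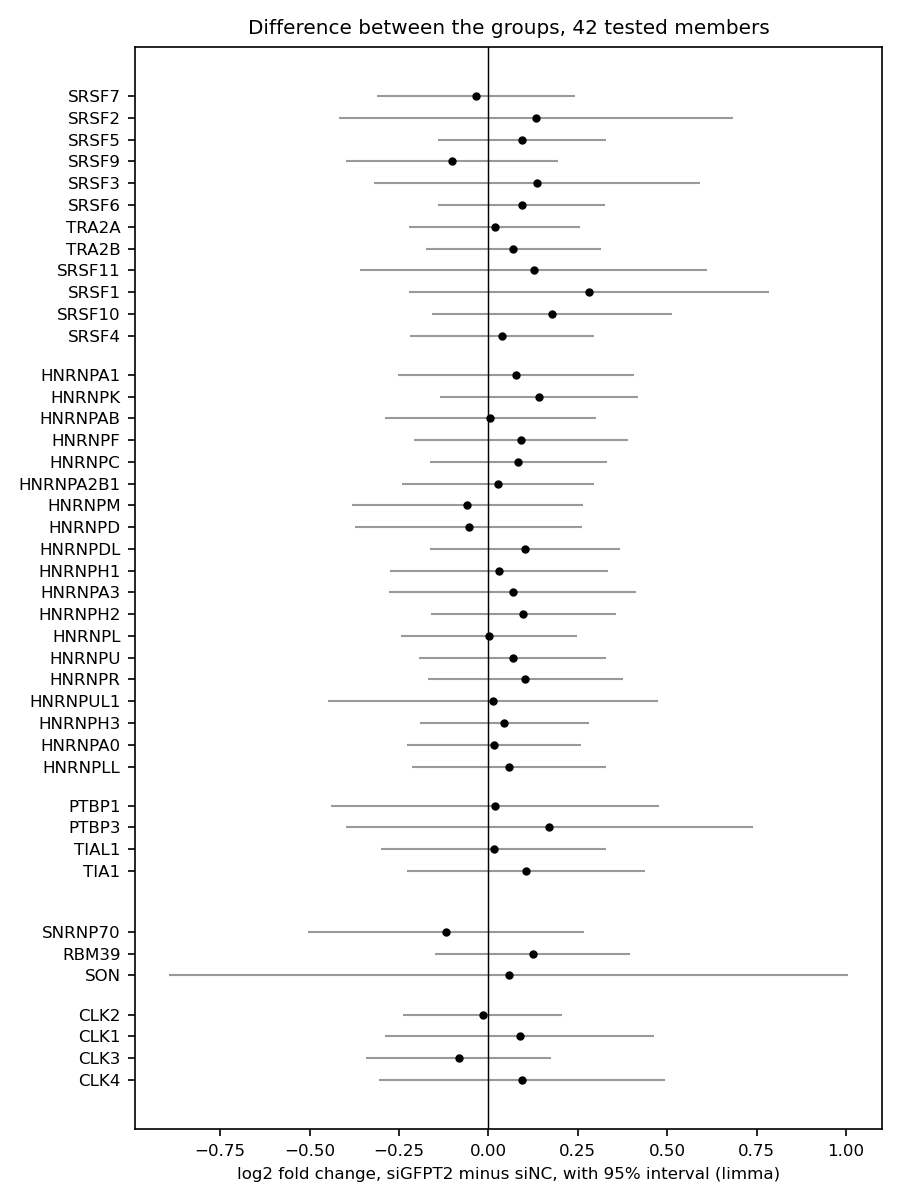
Log2 fold change (siGFPT2 minus siNC, on the log2(FPKM + 0.1) scale) of the 42 tested splicing regulators, with points for the estimate and bars for limma's 95% interval, by family. Every interval spans 0, and the widest is that of SON, from -0.89 up to about a 2-fold increase.

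Groups that do not overlap were found for 2 of 42 genes, SRSF5 and SRSF6 (4.76%, against a background of 3.53%). SRSF5, an SR protein also named SRp40, was 32.7, 37.3 and 36.03 FPKM in siNC and 37.5, 37.4 and 38.03 FPKM in siGFPT2. Its means were 35.3 ± 2.33 FPKM in siNC and 37.6 ± 0.341 FPKM in siGFPT2 (SD, n = 3 each) and its log2 fold change 0.09 ± 0.10 (SE; 95% interval -0.14 to 0.33). SRSF6, a regulator of alternative exons in skin and brain among other tissues, was 20.5, 22.7 and 23.1 FPKM in siNC and 23.3, 23.3 and 24.1 FPKM in siGFPT2. Its log2 fold change was 0.09 ± 0.10 (SE; 95% interval -0.14 to 0.33). In both genes siNC replicate 1 was the lowest library, and without it each log2 fold change was 0.04. In both, the distance between the highest siNC and the lowest siGFPT2 library was under 1 FPKM. The separation ended for both with quantile normalization and with median centring. Without siNC replicate 3, groups did not overlap for 12 of 42 genes (background 29%), and for 19 when siGFPT2 replicate 2 was left out as well (background 41.9%).

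For SRSF1, SRSF2 and SRSF3, differences between single libraries of siNC were larger than those between the group means. SRSF1 (ENSG00000136450; chromosome 17, 58003360 to 58007346 on the minus strand; GENCODE 29 on GRCh38, as for the positions below), which binds purine-rich exonic enhancers and acts as an oncogene when overproduced, was 5.87, 8.70 and 10.5 FPKM in siNC and 9.38, 10.01 and 10.3 FPKM in siGFPT2. siNC replicate 1 was the lowest and siNC replicate 3 the highest of the 6 libraries, 1.79-fold apart, so the siNC group spanned all of siGFPT2. The log2 fold change was 0.28 ± 0.21 (SE; 95% interval -0.22 to 0.78), and 0.05 without siNC replicate 1. SRSF2 (ENSG00000161547; chromosome 17, 76734115 to 76737374 on the minus strand), the speckle protein SC35, was 28.3, 34.5 and 52.1 FPKM in siNC and 37.6, 46.9 and 38.03 FPKM in siGFPT2. SRSF3 (ENSG00000112081; chromosome 6, 36594353 to 36605600 on the plus strand), the smallest of the classical SR proteins, was 18.1, 21.6 and 29.7 FPKM in siNC and 22.9, 27.4 and 24.6 FPKM in siGFPT2. The order of libraries was the same at its ends, with siNC replicate 1 lowest and siNC replicate 3 highest, 1.84-fold apart for SRSF2 and 1.64-fold for SRSF3. Their log2 fold changes were 0.13 ± 0.23 (SE; 95% interval -0.42 to 0.68) and 0.14 ± 0.19 (SE; 95% interval -0.32 to 0.59). Without siNC replicate 1 they were -0.06 and -0.03.

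Leaving out siNC replicate 3 gave limma's log2 fold changes of 0.46 for SRSF1, 0.38 for SRSF2 and 0.33 for SRSF3, each with an adjusted p of 0.810 and with unadjusted values of 0.0341, 0.0372 and 0.0400. In that fit these were the 3 of 42 members (7.14%) with an unadjusted p under 0.05, against a background of 4.03%. Without both siNC replicate 3 and siGFPT2 replicate 2, the same 3 genes had log2 fold changes of 0.45, 0.27 and 0.26 with limma's adjusted p at 0.720 and 7.14% of members at an unadjusted p under 0.05, against a background of 5.82%. SRSF1 and SRSF2 are uncertain as gene counts. Of the exon length of SRSF1, 56.6% is shared with a protein-coding gene model on the same strand (AC015813.2), and 36.7% of that of SRSF2 with MFSD11 on the opposite strand, and the labels do not say whether counting used strand.

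**Figure D3:**
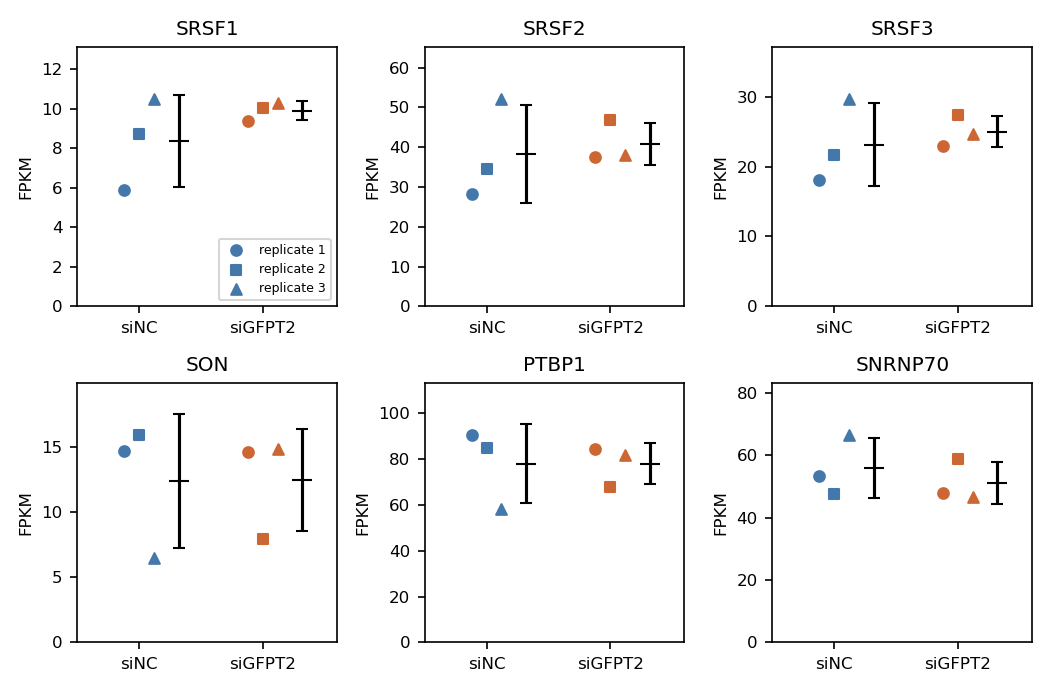
FPKM in each library for SRSF1, SRSF2, SRSF3, SON, PTBP1 and SNRNP70 (linear axes from 0), with marker shape for the replicate and black bars for the mean ± SD of each group. siNC replicate 1 is lowest for the SRSF genes, at 5.87, 28.3 and 18.1 FPKM, and siNC replicate 3 and siGFPT2 replicate 2 are the lowest for SON and PTBP1.

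The other SR proteins varied less. SRSF7, which joins its RNA recognition motif with a zinc knuckle, was the most abundant of them at 45.8 to 53.9 FPKM, with a log2 fold change (95% interval in parentheses, here and below) of -0.03 (-0.31 to 0.24). SRSF9, related to SRSF1 in structure, was 39.7, 33.5 and 35.4 FPKM in siNC and 32.4, 37.96 and 30.97 FPKM in siGFPT2. Unlike SRSF1 it was highest in siNC replicate 1, and the level of SRSF1 as a percent of that of SRSF9 was 14.8 in that library and 25.97 to 33.2 in the others. The exons of SRSF9 share 46.2% of their length with GATC on the opposite strand. SRSF10, which represses splicing when dephosphorylated, as in heat shock, was 6.99, 8.73 and 7.12 FPKM in siNC and 8.87, 7.57 and 9.40 FPKM in siGFPT2. SRSF11 was 9.23, 11.2 and 7.42 FPKM in siNC and 11.3, 7.93 and 11.1 FPKM in siGFPT2. For SRSF11, siNC replicate 3 and siGFPT2 replicate 2 were the lowest, the highest library was 1.53 times the lowest, and its log2 fold change was 0.13 (-0.36 to 0.61). This became -0.02 without siNC replicate 3, 0.29 without siGFPT2 replicate 2 and 0.14 when neither was counted. It was below 0 only with siNC replicate 3 left out and siGFPT2 replicate 2 kept. SRSF4 stayed within 6.65 to 7.76 FPKM (log2 fold change 0.04, interval -0.22 to 0.29). TRA2A and TRA2B, which bind GAA-rich enhancers and are homologues of the fly sex determination factor transformer-2, were even across libraries, at 14.2 to 15.8 FPKM and 13.2 to 15.2 FPKM, with log2 fold changes of 0.02 (-0.22 to 0.26) and 0.07 (-0.18 to 0.32).

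Of 12 SR and TRA2 genes, 8 (66.7%) were lowest in siNC replicate 1, where 22.9% of all features had their lowest value. Over the 42 tested members the count was 21 (50%), with 8 of 19 hnRNPs among them. The median deviation of siNC replicate 1 from a gene's mean over the 6 libraries was -0.15 for the SR and TRA2 genes, -0.09 for the hnRNPs and -0.02 for all features, on the log2(FPKM + 0.1) scale. siNC replicate 3 was lowest for 14 members (33.3%, against 39.3% of all features) and highest for 11 (26.2% against 30.2%). siNC replicate 3 and siGFPT2 replicate 2 deviated to the same side for 36 of 42 members (85.7%, against 85.9% of all features). The difference between the groups took 8.37% of a member's sum of squares at the median, against 5.02% for all features. Members with GC-rich mRNAs had higher deviations in siNC replicate 1 (Pearson's r with GC content 0.48 across 42 genes, against 0.38 across 12565 features). These genes share the same library and are not independent replicates, and the part of base composition in the low values was not tested.

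**Figure D4:**
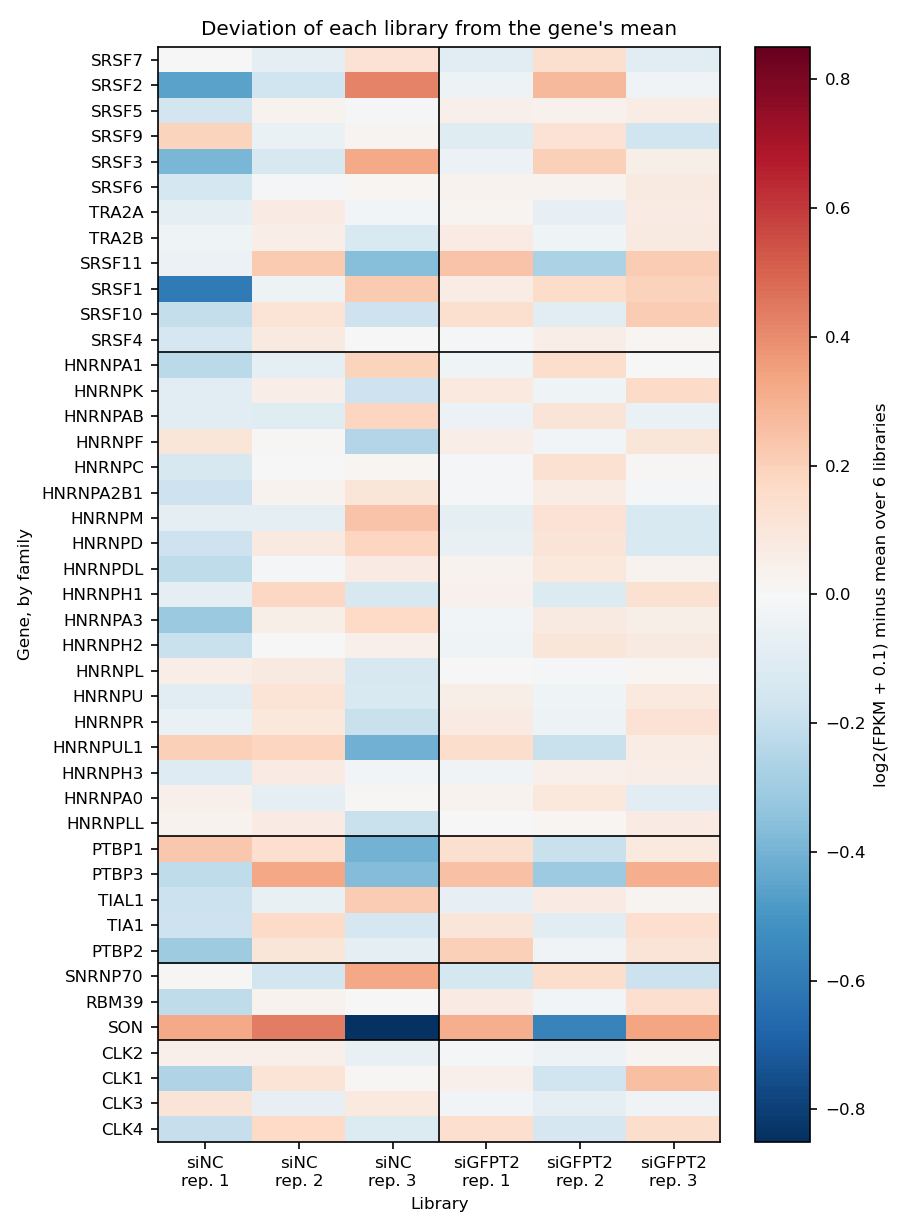
Deviation of each library from the gene's mean over the 6 libraries (log2(FPKM + 0.1), red above and blue below), for all 43 genes by family. The deepest blue is SON in siNC replicate 3 at -0.84, followed by SRSF1 in siNC replicate 1 at -0.60, while siNC replicate 3 and siGFPT2 replicate 2 resemble each other.

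All 19 hnRNP intervals lay within a 1.5-fold change, with 17 log2 fold changes above 0 and 2 below (background 61.4% above 0). Without siNC replicate 1 the count was 12 above and 7 below (background 60.7%), and with median centring 10 and 9 (background 44%). HNRNPA1 (ENSG00000135486; chromosome 12, 54280193 to 54287088 on the plus strand), which binds UAGG-like silencers, was 99.99, 111 and 133 FPKM in siNC and 114, 129.8 and 117 FPKM in siGFPT2, and its log2 fold change was 0.08 (-0.25 to 0.41). Its partner HNRNPA2B1, also a carrier of RNA in cytoplasmic transport, was 70.3, 81.1 and 85.4 FPKM in siNC and 78.4, 83.02 and 79.01 FPKM in siGFPT2 (log2 fold change 0.03, interval -0.24 to 0.30). HNRNPA3 was 27.6, 35.6 and 38.7 FPKM in siNC and 33.9, 36.3 and 35.6 FPKM in siGFPT2 (log2 fold change 0.07, interval -0.28 to 0.41). All 3 were lowest in siNC replicate 1 and highest in siNC replicate 3, as were SRSF1 to SRSF3. The intronless HNRNPA0 was at 15.5 to 17.6 FPKM and did not share this order (log2 fold change 0.02, interval -0.23 to 0.26).

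Processed copies in the genome bear on this family. The table holds 74 features named as HNRNPA1 pseudogenes, of which 3 had a mean of at least 1 FPKM, with HNRNPA1P7 highest at 16.4 FPKM. Their reads came to 3.50% of those of HNRNPA1. For HNRNPA3 the share was 3.56% over 16 copies, for HNRNPC 2.08% over 9, for HNRNPK 2.72% over 5 and for HNRNPL 4.61% over 2. How reads that match both a gene and its copies were divided is not given in the sources used here, so the levels of these genes are uncertain.

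HNRNPK, which binds cytosine-rich RNA and single-stranded DNA, had the highest log2 fold change of the 19 hnRNPs. It was 109, 121 and 103 FPKM in siNC and 123, 113 and 130.04 FPKM in siGFPT2. Means were 111 ± 9.27 FPKM in siNC and 122 ± 8.42 FPKM in siGFPT2 (SD, n = 3 each), siNC replicate 2 lay above siGFPT2 replicate 2, and the log2 fold change was 0.14 ± 0.12 (SE; 95% interval -0.14 to 0.42). With each library's length slope as a covariate it was 0.14 (95% interval 0.01 to 0.27; limma's unadjusted p = 0.0390 and adjusted p = 0.712), the only member under an unadjusted p of 0.05 in that fit, against a background of 5.22%. HNRNPF and its relatives HNRNPH1, HNRNPH2 and HNRNPH3 bind runs of guanine. HNRNPF was 109.8, 103 and 86.1 FPKM in siNC and 107, 101 and 109.7 FPKM in siGFPT2 (log2 fold change 0.09, interval -0.21 to 0.39), lowest in siNC replicate 3. Its log2 fold change was -0.01 without that library and 0.02 when siGFPT2 replicate 2 was left out too. HNRNPH1 lay at 35.8 to 44.3 FPKM (log2 fold change 0.03, interval -0.27 to 0.33), HNRNPH2 at 30.05 to 36.7 FPKM (log2 fold change 0.10, interval -0.16 to 0.36) and HNRNPH3 at 19.4 to 21.9 FPKM (log2 fold change 0.04, interval -0.19 to 0.28). As a percent of HNRNPH1, HNRNPH2 stood at 98.5 in siNC replicate 3 and 102 in siGFPT2 replicate 2 and at 76.97 to 84.3 in the other libraries. Of the exon length of HNRNPH2, 16.3% is shared with a protein-coding gene model on the same strand (RPL36A-HNRNPH2), so its level is uncertain. Among all members, 20 share exon bases with another gene model, 13 of them with a protein-coding one.

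HNRNPC, which binds uridine runs and keeps Alu-derived exons out of mRNAs, was 77.3, 84.8 and 86.2 FPKM in siNC and 84.3, 92.9 and 85.8 FPKM in siGFPT2 (log2 fold change 0.08, interval -0.16 to 0.33). HNRNPM, known for its part in CD44 splicing in epithelial to mesenchymal transition, was 57.9, 57.8 and 72.4 FPKM in siNC and 57.7, 66.5 and 55.8 FPKM in siGFPT2. It was highest in siNC replicate 3 and siGFPT2 replicate 2 and had one of the 2 fold changes of the family below 0, -0.06 (-0.38 to 0.26). It became 0.05 when siNC replicate 3 was left out, -0.13 when siGFPT2 replicate 2 was and -0.03 when both were. The other was that of HNRNPD, also named AUF1, which binds AU-rich elements and promotes mRNA decay, at 41.6 to 53.4 FPKM (log2 fold change -0.06, interval -0.37 to 0.26). The related HNRNPDL and HNRNPAB lay at 37.03 to 45.9 FPKM (log2 fold change 0.10, interval -0.16 to 0.37) and 102 to 124 FPKM (log2 fold change 0.01, interval -0.29 to 0.30). HNRNPUL1 was 24.3, 23.9 and 15.9 FPKM in siNC and 23.3, 18.4 and 21.97 FPKM in siGFPT2, 1.53-fold between its extremes, with siNC replicate 3 and siGFPT2 replicate 2 below the other 4 libraries and a log2 fold change of 0.01 (-0.45 to 0.47). That value was -0.19 without siNC replicate 3, 0.11 without siGFPT2 replicate 2 and -0.09 with neither. In the last fit siGFPT2 lay wholly below siNC, but groups did not overlap, in either direction, for 19 of 42 members there (background 41.9%). HNRNPU, the scaffold attachment factor of chromatin, was at 23.2 to 27.6 FPKM (log2 fold change 0.07, interval -0.19 to 0.33). In HNRNPU, siNC replicate 3 and siGFPT2 replicate 2 were not both below the other 4 libraries. Of its exon length, 15.6% is shared with COX20 on the opposite strand. HNRNPL, which binds CA repeats, was at 28.7 to 33.3 FPKM (log2 fold change 0.00, interval -0.25 to 0.25), and HNRNPLL, known from CD45 splicing in lymphocytes, at 6.50 to 7.80 FPKM (log2 fold change 0.06, interval -0.21 to 0.33). HNRNPLL as a percent of HNRNPL was 22.7 to 24.4 in the 6 libraries. HNRNPR was at 18.96 to 23.5 FPKM (log2 fold change 0.10, interval -0.17 to 0.38).

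PTBP1 (ENSG00000011304; chromosome 19, 797075 to 812327 on the plus strand) binds pyrimidine tracts and represses neuronal exons, among them an exon of PTBP2 whose skipping leads to decay of the PTBP2 transcript. PTBP1 was 90.6, 85.1 and 58.4 FPKM in siNC and 84.7, 67.8 and 81.6 FPKM in siGFPT2. siNC replicate 3 and siGFPT2 replicate 2 were the lowest of the 6 libraries, 1.55-fold from lowest to highest, and the log2 fold change was 0.02 ± 0.19 (SE; 95% interval -0.44 to 0.48). It was -0.18 without the first of these libraries, 0.12 without the second and -0.08 without both (95% interval -0.26 to 0.10). PTBP2, the neural paralog, was 0.508, 0.706 and 0.606 FPKM in siNC and 0.762, 0.635 and 0.709 FPKM in siGFPT2, under the filter of a mean of 1 FPKM. With no filter its log2 fold change was 0.19 (95% interval -0.30 to 0.68), on 165 to 254 fragments per library. PTBP2 as a percent of PTBP1 lay between 0.561 in siNC replicate 1 and 1.04 in siNC replicate 3. PTBP3 was 16.3, 23.8 and 14.6 FPKM in siNC and 22.6, 15.3 and 23.5 FPKM in siGFPT2, low in siNC replicate 1 as well as in siNC replicate 3 and siGFPT2 replicate 2, with a log2 fold change of 0.17 ± 0.24 (SE; 95% interval -0.40 to 0.74). Single libraries moved it, to 0.03 without siNC replicate 3, 0.37 without siGFPT2 replicate 2, 0.38 without siNC replicate 2, 0.11 without siNC replicate 1, 0.09 without siGFPT2 replicate 1 and 0.06 without siGFPT2 replicate 3. With both siNC replicate 3 and siGFPT2 replicate 2 left out it was 0.22.

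TIA1 and TIAL1 bind uridine-rich RNA next to weak 5′ splice sites and gather in stress granules. TIA1 was 4.77, 6.07 and 4.89 FPKM in siNC and 5.83, 5.08 and 5.98 FPKM in siGFPT2 and TIAL1 10.2, 11.1 and 13.5 FPKM in siNC and 11.02, 12.1 and 11.7 FPKM in siGFPT2. In siNC replicate 3 TIAL1 was at its highest and TIA1 near its lowest, and TIA1 as a percent of TIAL1 was 36.3 there, against 41.9 in siGFPT2 replicate 2 and 46.8 to 54.7 in the other libraries. Their log2 fold changes were 0.11 (-0.23 to 0.44) and 0.01 (-0.30 to 0.33).

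SON (ENSG00000159140; chromosome 21, 33542618 to 33577481 on the plus strand), the large scaffold protein of nuclear speckles, had the widest range of the members, 2.45-fold. It was 14.7, 15.9 and 6.50 FPKM in siNC and 14.6, 7.89 and 14.9 FPKM in siGFPT2. siNC replicate 3 and siGFPT2 replicate 2 were each lower than every other library of both groups, whose range was 14.6 to 15.9 FPKM. The log2 fold change was 0.06 ± 0.40 (SE; 95% interval -0.89 to 1.01), and without both low libraries it was -0.05 (-0.25 to 0.14). With the length slope of each library as a covariate it was 0.05 ± 0.05 (SE; 95% interval -0.07 to 0.17). Without siNC replicate 3 alone it was -0.35 and without siGFPT2 replicate 2 alone 0.35, so the sign follows which of these libraries is counted. SON has the third longest mRNA of the members, at 8813 bases. SRRM2, the other speckle scaffold, was 89.9, 90.1 and 41.8 FPKM in siNC and 82.7, 50.7 and 78.4 FPKM in siGFPT2, with the same libraries low.

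SNRNP70 (ENSG00000104852; chromosome 19, 49085419 to 49108605 on the plus strand), the 70K protein of the U1 particle that binds the 5′ splice site, showed the reverse order. It was 53.4, 47.6 and 66.5 FPKM in siNC and 47.9, 58.9 and 46.7 FPKM in siGFPT2. siNC replicate 3 and siGFPT2 replicate 2 were the highest of their groups, the mRNA is the shortest but for that of SRSF9 at 1603 bases, and the log2 fold change was -0.12 ± 0.16 (SE; 95% interval -0.51 to 0.27). Without siNC replicate 3 it was 0.01, and without siGFPT2 replicate 2 it was -0.22. Without both libraries it was -0.09 (-0.29 to 0.11). RBM39, a relative of the splicing factor U2AF and the protein degraded under the drug indisulam, was 12.5, 14.9 and 14.6 FPKM in siNC and 15.3, 14.3 and 16.1 FPKM in siGFPT2 (log2 fold change 0.12, interval -0.15 to 0.39), lowest in siNC replicate 1. Across 42 members, the deviation of siNC replicate 3 had a Spearman's rho of -0.20 with mRNA length, and that of siGFPT2 replicate 2 of -0.23, against -0.60 and -0.60 across 12565 features. By Pearson's r with log2 mRNA length the members were close to all features, at -0.32 and -0.36 against -0.38 and -0.38. The longest annotated mRNAs of HNRNPA0 and CLK3 have 8726 and 10498 bases. These genes deviated by 0.01 and 0.09 in siNC replicate 3 and by 0.09 and -0.07 in siGFPT2 replicate 2.

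**Figure D5:**
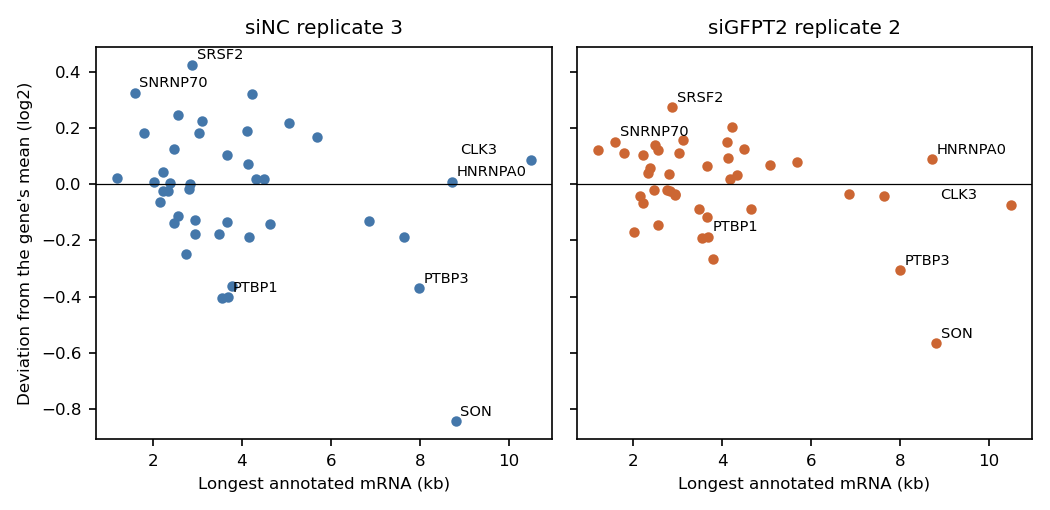
Deviation from the gene's mean over the 6 libraries (log2(FPKM + 0.1)) against the longest annotated mRNA (kb, GENCODE 29) for the 42 tested members, in siNC replicate 3 and siGFPT2 replicate 2. SON lies lowest in both, at -0.84 and -0.57, while the long HNRNPA0 and CLK3 lie near 0.

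CLK kinases were led by CLK2, with CLK1 and CLK3 lower and CLK4 lowest. CLK2 was 26.8, 26.7 and 24.9 FPKM in siNC and 25.8, 25.2 and 26.4 FPKM in siGFPT2, the narrowest range of the 43 genes (1.08-fold), with a log2 fold change of -0.02 (-0.24 to 0.21). CLK1 (ENSG00000013441; chromosome 2, 200853009 to 200864744 on the minus strand), which is stored in part as an intron-retaining nuclear transcript, was 5.59, 7.26 and 6.72 FPKM in siNC and 6.91, 5.94 and 7.99 FPKM in siGFPT2, with siNC replicate 1 lowest and siGFPT2 replicate 3 highest and a log2 fold change of 0.09 (-0.29 to 0.46). CLK4, its closest paralog, was 1.57, 2.05 and 1.67 FPKM in siNC and 2.01, 1.63 and 2.02 FPKM in siGFPT2 (log2 fold change 0.09, interval -0.31 to 0.50). The level of CLK4 as a percent of that of CLK1 was 24.8 to 29.1 across the libraries. CLK3, which is abundant in testis, was 5.35, 4.71 and 5.26 FPKM in siNC and 4.87, 4.70 and 4.85 FPKM in siGFPT2 (log2 fold change -0.08, interval -0.34 to 0.18), and its highest library was siNC replicate 1. Of the 4 kinases 0 passed limma's test, with 2 log2 fold changes above 0 and 2 below.

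Other genes of splicing did not pass the test either. Of 26 further SR-related proteins above the filter (27 listed), 0 were called in either direction, with a median log2 fold change of 0.08. SRRM2 had -0.01 (-0.83 to 0.80), and RNPS1, of the exon junction complex, was at 28.4 to 33.7 FPKM (log2 fold change 0.01, interval -0.26 to 0.29). Of 5 SR protein kinases and import factors (7 listed), 0 were called, with a median of 0.11. The importin TNPO3 was 43.3, 43.9 and 30.5 FPKM in siNC and 43.5, 34.7 and 43.5 FPKM in siGFPT2 and the kinase SRPK2 11.9, 13.99 and 8.21 FPKM in siNC and 13.7, 9.51 and 13.3 FPKM in siGFPT2, both lowest in siNC replicate 3. Of 24 hnRNP-like proteins (26 listed), 0 were called, with a median of 0.01, and the abundant ILF2 and YBX1 had 0.05 (-0.27 to 0.37) and -0.06 (-0.34 to 0.22).

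Of 9 tissue-restricted splicing factors above the filter (21 listed), 0 were called, with a median of 0.07, and all 9 were lowest in siNC replicate 3. ESRP1, the epithelial splicing regulator, was 31.9, 36.2 and 23.6 FPKM in siNC and 33.7, 27.2 and 35.3 FPKM in siGFPT2, and RBM47 23.4, 23.4 and 11.04 FPKM in siNC and 22.02, 13.8 and 22.1 FPKM in siGFPT2. Of 7 RBM splicing factors 0 were called (median 0.03), with RBM22 at 13.9 to 14.9 FPKM and RBM6 at 11.3 to 13.1 FPKM. In the core spliceosome 0 of 38 genes (39 listed) were called, with a median of 0.02. SF3B5 was 158, 126 and 206 FPKM in siNC and 134, 184 and 139.8 FPKM in siGFPT2 and SNRPD2 138, 121 and 218 FPKM in siNC and 126, 192 and 132 FPKM in siGFPT2, both highest in siNC replicate 3 and siGFPT2 replicate 2. Of 15 genes of nonsense-mediated decay and the exon junction complex, 0 were called, with a median of 0.02. SMG5 was at 34.5 to 47.8 FPKM (log2 fold change 0.01, interval -0.35 to 0.38) and MAGOH at 21.1 to 29.7 FPKM (log2 fold change -0.05, interval -0.46 to 0.36). The list of cytosolic ribosomal proteins had 0 called of 20 and a median of 0.01, and that of mitochondrially encoded genes 0 of 9 and -0.02.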

How the data were processed

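The deposited table gives FPKM per gene and library, as computed by the authors, from oligo(dT)-selected paired-end libraries per the labels' protocols. HISAT2, featureCounts and DESeq2 are named per the submitters' processing notes, without versions. The genome build, annotation and strand setting used for counting were not named in these sources. Symbols came from a table of gene names, which matched 60463 of 60605 Ensembl identifiers, and gene models from GENCODE 29 (GRCh38). FPKM steps gave back whole reads for all of 36981 features above 0 (tolerance 0.0001 reads), with the GENCODE 29 exon length for 53.9% and otherwise the smallest length that gave whole reads, so the share is partly built in.

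The 12896 features averaging 1 FPKM or more were tested with limma 3.58.1 in R 4.3.3 (lmFit, eBayes with trend, two-sided) on log2(FPKM + 0.1), with group as the only term, Benjamini-Hochberg adjustment over the whole set and a threshold of 0.05. This scale understates changes of low genes. The members, the 9 further lists and the alternatives were chosen with earlier results of these data known. Named were GFPT2, all members and the 2 most abundant genes of each further splicing list. No score over a list was tested. The fit was also run on simulated counts, drawn without the differences by mRNA length between these libraries. Its outcome there is not reported here. Of the immune markers, the list's sum and count are not reported here.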

Additional observations from a re-analysis of the deposited data

How the results depend on the processing

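Under 17 alternatives (pseudocounts of 1 and 0.01, a minimum mean of 5 FPKM, no filter, median centring, quantile normalization, no variance trend, a replicate block, length slope as a covariate, limma-voom on recovered reads, each library left out in turn, and siNC replicate 3 and siGFPT2 replicate 2 left out together), 0 features and 0 splicing regulators were called in each. The number of features at an unadjusted p under 0.05 ran from 16 with the minimum of 5 FPKM to 754 with no filter, and was 84 in the fit as reported. The log2 fold change of GFPT2 ran from -0.21 without siNC replicate 3 to -0.06 without siGFPT2 replicate 2. Among the 42 members the sign of the fold change differed from that reported for 11 with median centring, 5 with quantile normalization, 12 without siNC replicate 1, 12 without siNC replicate 3 and 3 to 8 without another library. Median centring moved the median of all features from 0.03 to -0.02.

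Libraries with the same replicate number did not all deviate together. Deviations from the group means correlated at 0.47, -0.72 and -0.57 for replicates 1, 2 and 3, and siNC replicate 3 correlated best with siGFPT2 replicate 2 (0.79). With 3 libraries per group, these correlations cannot show whether the numbers mark a shared culture or batch. With a replicate block 0 features and 0 members were called, and 63 features had an unadjusted p under 0.05. With 165 to 254 fragments, PTBP2 is the member whose depth limits precision most.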
